A study of Mus musculus with 12 samples.

Results

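RNA levels of 10 genes known from the trophoblast and placenta were examined: Rhox5, Rhox6, Rhox9, Krt7, Prl3b1, Gata2, Gata3, Tfap2a, Tfap2c and Elf5. They were taken by exact gene name from a deposited expression table of 25965 entries, and all 10 were found. The cells were embryonic stem (ES) cells of C57BL/6 mice, of lines labelled male. They formed 6 groups with 2 libraries each, Smchd1 del/del and Smchd1 fl/fl at day 1, day 5 and day 8 of differentiation towards neuromesodermal progenitors, the caudal cells that give spinal cord and paraxial mesoderm. The del/del cells had been transduced with MSCV-Cre-puro, a retrovirus that brings the Cre recombinase and a puromycin resistance gene, and were selected with puromycin. The fl/fl cells carried the floxed alleles and were neither transduced nor selected, so the deletion cannot be told apart from transduction and selection. Each ES line came from a single blastocyst derived in 2i+LIF medium and was split to give both genotypes. The libraries of line 1 and line 3 are therefore paired by line, and all cells had been moved to serum+LIF before differentiation. Differentiation began with LIF withdrawal and Fgf2, with a Gsk3 inhibitor from 2 days on and Gdf11 after another 4 days. The earliest sampling is called day 1 in the labels, which also call it undifferentiated, and day 0 in the protocol. The label's name is used below.

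Trophoblast is the outer lineage of the blastocyst and builds most of the placenta. Its stem cells depend on transcription factors that include Tfap2c, Elf5, Eomes, Cdx2 and Gata3, and their descendants make keratins, homeobox proteins of the X-linked Rhox cluster and prolactin-family hormones. Mouse ES cells normally contribute little to this lineage, and the Elf5 promoter is methylated and silent in them. Several of the 10 genes are used elsewhere as well: Gata2 in blood and endothelium, Gata3 in T cells and sensory tissue, Tfap2a in surface ectoderm and neural crest, Tfap2c in germ cells, Krt7 in simple epithelia, and Rhox5 in ES cells and Sertoli cells. Smchd1 encodes a chromatin protein that keeps the inactive X and certain autosomal clusters silent.

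Library depth was uneven. Reads in genes ran from 1.51 to 8.67 M a library (M is mega), and the shallowest was the line 3 fl/fl library of day 8. Its column alone is named as merged, and what was merged was not given in the sources used here. Smchd1 itself, the check of the labels, lay at 1.83 to 2.59 in the del/del libraries and at 4.01 to 5.37 in the fl/fl libraries. These values, and all levels called relative below, are log2 RPM (reads per M reads) after each library was rescaled to its median tested gene. Without this rescaling the median gene itself differed between genotypes at day 8 by 0.90 on the log2 scale. Of the 14063 entries with enough reads to be tested, 8 were from the 10 genes. Tfap2a, with 192 reads over the 12 libraries, and Elf5, with 21, did not pass the filter and are described by their reads. Prl3b1 passed only through its fl/fl day 8 libraries, so these had to stand above the others. Its differences that involve them are given as descriptions, and counts below are also given without it.

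The promoters of the 3 genes outside the Rhox cluster whose day 8 differences are described most closely are shown first, as a reader will meet their values below. Each runs 5′ to 3′ on the plus strand of RefSeq's GRCm38.p6 table, from 250 bases before the start to 50 after it, and capitals mark matches to the motifs searched.
Krt7, chr15:101412153-101412452: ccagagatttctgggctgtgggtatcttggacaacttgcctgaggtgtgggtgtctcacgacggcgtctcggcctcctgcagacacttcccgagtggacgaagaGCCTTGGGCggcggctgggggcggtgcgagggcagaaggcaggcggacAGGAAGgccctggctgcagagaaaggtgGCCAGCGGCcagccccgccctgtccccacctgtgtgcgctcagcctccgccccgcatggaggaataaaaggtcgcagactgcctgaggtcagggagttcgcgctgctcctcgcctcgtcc
Prl3b1, chr13:27242180-27242479: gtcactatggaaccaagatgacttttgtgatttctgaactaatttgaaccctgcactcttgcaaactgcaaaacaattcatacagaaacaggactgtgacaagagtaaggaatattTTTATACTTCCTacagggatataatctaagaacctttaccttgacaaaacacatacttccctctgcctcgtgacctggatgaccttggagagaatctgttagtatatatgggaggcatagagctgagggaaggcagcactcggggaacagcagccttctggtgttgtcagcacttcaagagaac
Gata2, chr6:88193641-88193940: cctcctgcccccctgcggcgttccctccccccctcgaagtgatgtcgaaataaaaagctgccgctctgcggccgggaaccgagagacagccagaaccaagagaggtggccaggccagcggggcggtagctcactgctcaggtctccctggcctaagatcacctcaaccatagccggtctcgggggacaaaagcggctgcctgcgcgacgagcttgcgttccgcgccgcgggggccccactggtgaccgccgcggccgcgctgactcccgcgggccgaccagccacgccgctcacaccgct
Gata2, chr6:88198414-88198713: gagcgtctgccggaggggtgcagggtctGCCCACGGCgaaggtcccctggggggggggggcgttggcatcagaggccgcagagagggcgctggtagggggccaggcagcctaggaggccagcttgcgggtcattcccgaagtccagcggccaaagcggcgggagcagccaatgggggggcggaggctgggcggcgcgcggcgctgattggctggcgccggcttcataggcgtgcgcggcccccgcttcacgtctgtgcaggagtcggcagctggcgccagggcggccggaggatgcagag

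The 4 motifs were searched on both strands. For the AP-2 factors, which are the Tfap2 family, the letters were GCCNNNGGC, which read alike on either strand. For the Ets factors, which include Elf5, they were AGGAAG. For the GATA factors they were AGATAA, and for the box bound by the TATA-binding protein they were TATAAA. None of these overlaps another motif in the promoters shown. Counting the start as 0, the Krt7 promoter holds AP-2 matches at -146 and -70 and an Ets match at -98. The Prl3b1 promoter holds a reverse-strand TATA match at -134 that runs directly into a reverse-strand Ets match at -128, without overlap. The Gata2 promoter at its upstream start holds none of the 4 motifs, and the downstream one holds an AP-2 match at -222. Among all 32851 promoters of the table, 16.6% hold the AP-2 motif, 35.4% the Ets motif, 13.6% the TATA motif and 11.2% the GATA motif. No promoter of the 7 genes found in the table (10 promoters in all) holds the GATA motif. CpG number set the promoters apart: 21 in Krt7 and 32 and 29 in Gata2, against 2 in Prl3b1, where the median promoter has 7. Rhox6, Rhox9 and Tfap2c have no entry in that table. A match is a run of letters and was not shown to be bound.

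**Figure D1:**
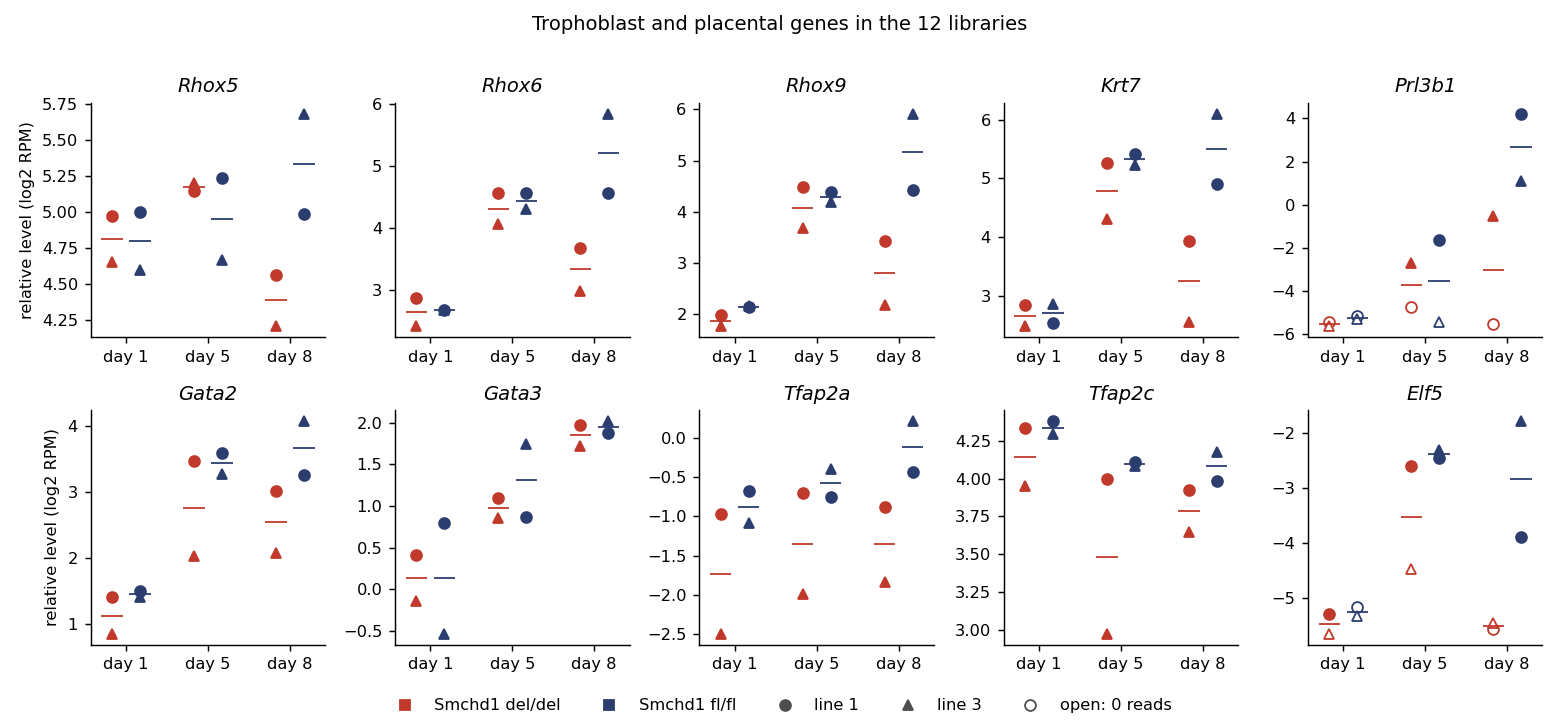
Relative level (log2 RPM) of the 10 genes in every library, by day, with del/del left of fl/fl; circles are line 1, triangles line 3, open symbols libraries with 0 reads, and bars group means (n = 2). Each panel has its own vertical axis. At day 8 the del/del symbols of the Rhox genes, Krt7 and Prl3b1 lie below both fl/fl symbols, while those of Gata3 overlap. For Prl3b1 the filter required high fl/fl levels at this day.

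The 10 genes spanned a wide range of levels. Per kb of exon, which allows genes to be compared, the mean relative level over the 12 libraries was highest for Rhox5 at 41.2 ± 11.6 RPM (SD, n = 12). Rhox6 followed at 17.5 ± 14.5, Rhox9 at 6.31 ± 6.43, Tfap2c at 4.44 ± 0.967 and Krt7 at 3.36 ± 2.84 RPM per kb. Below these lay Prl3b1 at 1.73 ± 5.03 (0.284 ± 0.615, below Gata3, without the line 1 fl/fl library of day 8), Gata2 at 1.32 ± 0.885 and Gata3 at 0.602 ± 0.302 RPM per kb. Intervals of mean ± SD of neighbours in this order overlap from Rhox5 down to Gata3, but these SDs pool all days and genotypes. Within every library Rhox5 lay above Rhox6 and Rhox6 above Rhox9, while the place of Tfap2c changed between libraries. Tfap2a, at 0.114 ± 0.0538 RPM per kb, and Elf5, at 0.0132 ± 0.0176, lay lower still, so of the factors that define trophoblast stem cells Elf5 was at or near 0. It had 0 reads in del/del and 4 in fl/fl cells at day 8, 4 in del/del and 12 in fl/fl cells at day 5, and 1 read in all at day 1. Without a filter limma called Elf5 higher in fl/fl cells at day 5 (2.71, adjusted p 0.0178) and at day 8 (2.09, 0.0394) than at day 1, on these few reads. Of the syncytiotrophoblast fusion genes, Synb had no read in any library and Syna 40 reads in all. The label of the set is thus borne by part of its genes only, and the cells were not sorted. In bulk samples, fewer cells of a type and less RNA per cell cannot be told apart.

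Krt7, Rhox6, Rhox9 and Gata2 rose between day 1 and day 5 in both genotypes. Krt7 (chromosome 15, 101411043 to 101430313, mm10, plus strand), a keratin of simple epithelia and of trophoblast, averaged 2.67 ± 0.26, 4.79 ± 0.66 and 3.25 ± 0.97 log2 RPM at days 1, 5 and 8 in del/del cells, and 2.71 ± 0.23, 5.32 ± 0.14 and 5.51 ± 0.84 in fl/fl cells (SD, n = 2 each). Rhox6 (chromosome X, 37826910 to 37829857, plus strand) averaged 2.64 ± 0.32, 4.31 ± 0.35 and 3.33 ± 0.49 in del/del cells, and 2.68 ± 0.01, 4.44 ± 0.18 and 5.21 ± 0.90 in fl/fl cells. Rhox9 (chromosome X, 37899097 to 37901867, minus strand), which like Rhox6 was named for its placental expression, averaged 1.88 ± 0.16, 4.08 ± 0.56 and 2.82 ± 0.88 in del/del cells, and 2.15 ± 0.01, 4.29 ± 0.14 and 5.18 ± 1.05 in fl/fl cells. In all 3, the group means of both genotypes were higher at day 5 than at day 1. From there the del/del means were lower at day 8 and the fl/fl means were higher, for Krt7 by only 0.18 ± 0.47, a difference that was -0.37 on the deposited scale. The higher fl/fl means came from line 3, whose day 8 library is the shallowest. There Krt7 went from 5.22 to 6.10, Rhox6 from 4.31 to 5.85 and Rhox9 from 4.20 to 5.92. In fl/fl cells of line 1 Krt7 went from 5.42 to 4.91, Rhox6 from 4.57 to 4.58 and Rhox9 from 4.39 to 4.44.

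Between day 5 and day 1, 4 of the 8 tested genes were called higher in del/del cells, where 21.2% of all tested genes were, and the same 4 in fl/fl cells, where 23% were. The differences were 2.12 ± 0.47 in del/del and 2.61 ± 0.47 in fl/fl cells for Krt7, 1.67 ± 0.37 and 1.76 ± 0.37 for Rhox6, 2.20 ± 0.47 and 2.14 ± 0.47 for Rhox9, and 1.63 ± 0.47 and 1.98 ± 0.47 for Gata2 (log2, SE; adjusted p by limma 0.00138 to 0.0176). On the deposited scale Rhox6 (0.76, adjusted p 0.148) and Gata2 (0.72, adjusted p 0.268) lost their del/del call. Gata2 lost it also without the line 1 del/del library of day 5 (0.90) or the line 3 del/del library of day 1 (1.35). Tfap2c was lower in del/del cells at day 5 than at day 1 by -0.66 ± 0.28 (adjusted p 0.0791), and was called with TMM factors (-0.78), voom (-0.73), the deposited scale (-1.57) and without the line 1 del/del library of day 5 (-1.18). Gata3 was higher in fl/fl cells by 1.17 ± 0.46 (adjusted p 0.0638), and was called with voom, array weights and without the line 1 fl/fl library of day 1 (1.83).

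Between day 8 and day 5 limma called none of the 8 in either genotype. In del/del cells 11.9% of all tested genes were called in either direction. An unadjusted p under 0.05 was reached by 4 of the 8, beside 3979 of all 14063 tested genes. All 4 were lower: Krt7 by -1.53 ± 0.47 (adjusted p by limma 0.0582), Rhox5 by -0.79 ± 0.26 (0.0714), Rhox9 by -1.27 ± 0.47 (0.109) and Rhox6 by -0.98 ± 0.37 (0.113). With voom, which weights the recovered reads, Krt7 was called lower (-1.48, adjusted p 0.0365). All 4 were called when either fl/fl day 8 library was left out, although these do not enter the del/del means. Krt7 was called alone without the line 3 del/del library of day 5 (-2.01) or the line 1 one of day 8 (-2.21), and Tfap2c, higher by 0.82, without the line 1 del/del library of day 5. Prl3b1 alone of the 8 had an unadjusted p under 0.05 in fl/fl cells (6.23 ± 1.72 higher, adjusted p by limma 0.0544), beside 3505 of all tested genes. Its filter required this high fl/fl level at day 8, so its values here and without a library are descriptions. In fl/fl cells 6.73% of tested genes were called, and voom called none of the 8. There too, calls appeared without 1 library: Rhox6 (1.41) and Rhox9 (1.63) were higher without the line 1 fl/fl library of day 8, and Prl3b1 (6.24) without either del/del library of day 8.

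Between day 8 and day 1, 2 of the 8 were called higher in del/del cells (26.9% of tested genes were) and 6 of the 8 in fl/fl cells (28.5% were). The 6 include Prl3b1, whose filter required its high fl/fl level at day 8, and without it 5 of 7 were called. Gata3 (chromosome 2, 9857078 to 9890034, minus strand), a zinc-finger factor of early trophoblast, was higher in both, by 1.71 ± 0.46 in del/del cells (adjusted p 0.00954) and 1.81 ± 0.46 in fl/fl cells (0.00668). Gata2 was higher by 1.42 ± 0.47 in del/del cells (0.0253) and 2.21 ± 0.47 in fl/fl cells (0.00221). Krt7 was 2.80 ± 0.47 higher in fl/fl cells, Rhox6 2.53 ± 0.37 and Rhox9 3.02 ± 0.47 (adjusted p by limma at most 0.000533). The del/del values of these 3 were 0.59 ± 0.47, 0.69 ± 0.37 and 0.93 ± 0.47 and were not called. With array weights Rhox6 and Rhox9 were, as was Rhox6 without either fl/fl library of day 8 (0.69 and 0.70) and Rhox9 without the line 3 del/del library of day 8 (1.58). Prl3b1 in del/del cells was called without the line 1 library of day 8 (5.02). On the deposited scale neither del/del call held (Gata3 1.51, adjusted p 0.0779; Gata2 1.22, 0.0963), nor did the fl/fl call of Gata3 (0.88, 0.235). Without the line 3 del/del library of day 1 both del/del calls were lost (Gata3 1.43, Gata2 1.14). They were also lost without the line 1 del/del library of day 8 (Gata3 1.61, Gata2 0.98), and the fl/fl call of Gata3 was lost without the line 3 fl/fl library of day 1 (1.14) and with array weights.

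At day 8, Rhox6, Rhox9 and Krt7 were several-fold lower in del/del than in fl/fl cells, and Rhox5 was lower by less. Prl3b1 set apart, limma called 4 of the 7 other tested genes lower and 0 higher, where 7.05% of all tested genes were called lower and 7.95% higher. The median difference of the 7 was -1.12 on the log2 scale, against 0.02 over all tested genes. In 6 of the 7 both del/del libraries lay below both fl/fl libraries, an order that 30.9% of all tested genes had. Gata3 was the exception. With Prl3b1, whose filter required high fl/fl levels at this day, 5 of 8 were called. All 5 calls were lost when either day 8 library of line 3 was left out, as detailed below.

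Among the transcription factors, Tfap2c (chromosome 2, 172549593 to 172558622, plus strand), an AP-2 factor that ES cells also express, had 641 and 494 reads in del/del cells at day 8 (line 1, then line 3, here and below), against 473 and 125 in fl/fl cells. Its relative levels were 3.92 and 3.65 in the del/del libraries, against 3.99 and 4.18 in the fl/fl libraries. The del/del libraries were lower by a narrow gap, and the difference of -0.30 ± 0.28 was not called (adjusted p by limma 0.459). Gata3 had 166 and 130 reads in the del/del libraries, against 109 and 28 in the fl/fl libraries, at relative levels of 1.97 and 1.72 against 1.87 and 2.02. These overlap, and the difference was -0.10 ± 0.46 (adjusted p 0.902).

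Gata2 (chromosome 6, 88193891 to 88207030, plus strand), a relative of Gata3 that acts with it on placental hormone genes in trophoblast giant cells, had 340 and 166 reads in the del/del libraries, against 284 and 116 in the fl/fl libraries. Its relative levels were 3.01 and 2.08 in the del/del libraries, against 3.25 and 4.07 in the fl/fl libraries. The groups do not overlap, but the gap between the genotypes was narrow in line 1, and the difference of -1.12 ± 0.47 was not called (adjusted p 0.120). It was called without the line 3 del/del library of day 5 (-1.12, 0.0481), which does not enter the day 8 means. Tfap2a (chromosome 13, 40715675 to 40733823, minus strand), which did not pass the filter, had 23 and 11 reads in the del/del libraries, against 22 and 8 in the fl/fl libraries. Genes on the other strand or nearby share 14.6% of the exon bases of Tfap2a, 5.83% of those of Gata3 and 1.09% of those of Krt7, and use of strand in counting was not given in the sources used here. Elf5 (chromosome 2, 103411688 to 103450989, plus strand), the Ets factor that holds trophoblast stem cells in their state, had 0 and 0 reads in the del/del libraries, against 2 and 2 in the fl/fl libraries.

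Krt7 had 649 and 233 reads in the del/del libraries, against 895 and 475 in the fl/fl libraries at day 8. Its relative levels were 3.94 and 2.56 in the del/del libraries, against 4.91 and 6.10 in the fl/fl libraries. The libraries of the 2 genotypes lay far apart in line 3 and closer in line 1. Krt7 was 4.76-fold lower in del/del cells (log2 -2.25 ± 0.47, adjusted p by limma 0.0170). With array weights the call was lost (adjusted p 0.0560).

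The 3 Rhox genes encode homeodomain proteins and stand within the X-linked cluster, Rhox6 and Rhox9 with 69.2 kb between them. Rhox6 had 542 and 312 reads in the del/del libraries, against 711 and 399 in the fl/fl libraries, at relative levels of 3.68 and 2.99 against 4.58 and 5.85. It was 3.68-fold lower in del/del cells (-1.88 ± 0.37, adjusted p by limma 0.0150). Rhox9 had 458 and 180 reads in the del/del libraries, against 645 and 418 in the fl/fl libraries, at relative levels of 3.44 and 2.19 against 4.44 and 5.92. Neither gene's genotypes overlap, and Rhox9 was 5.14-fold lower in del/del cells (-2.36 ± 0.47, adjusted p 0.0157). Rhox5 (chromosome X, 37804851 to 37808764, plus strand), the founding gene of the cluster, had 999 and 726 reads in the del/del libraries, against 945 and 355 in the fl/fl libraries. Its relative levels of 4.56 and 4.20 in del/del lay below the 4.99 and 5.68 in fl/fl. It was 1.93-fold lower in del/del cells (-0.95 ± 0.26, adjusted p 0.0354). This call was close to the threshold: it was lost with voom (-0.74, adjusted p 0.0703), with array weights (0.117), without a filter (-0.66, 0.0700), without any of the 4 day 1 libraries in turn (0.0518 to 0.0537) and without the line 1 del/del library of day 8 (-1.13, 0.0685). With all libraries, Rhox5 was not called between any pair of days.

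Of 30 Rhox genes in the table, 5 were tested and 11 had no read in any library. Many of the cluster's genes are near-identical copies, and the counting of reads that map to several copies was not given in the sources used here. Beyond the 3 above, the tested pair differed at day 8 by 0.47 ± 0.89 for Rhox1 and -1.40 ± 1.503 for Rhox13, and neither was called. Rhox1, with 167 and 133 reads in del/del and 95 and 110 in fl/fl cells at day 1, had 14 and 9 in del/del and 9 and 0 in fl/fl cells at day 8.

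Prl3b1 (chromosome 13, 27242430 to 27249679, plus strand) encodes placental lactogen II, a prolactin-family hormone of the later placenta. It had 0 reads in all 4 libraries of day 1, where 3 reads, the limit that a count of 0 allows, would be at most 0.0933 relative RPM. At day 5 it had 0 and 3 reads in the del/del libraries, against 7 and 0 in the fl/fl libraries. At day 8 it had 0 and 27 reads in the del/del libraries, against 559 and 15 in the fl/fl libraries. Of the 574 fl/fl reads of day 8, all but 15 came from line 1. In line 3 the relative levels were 0.69 RPM in del/del and 2.17 RPM in fl/fl cells. Summed over the libraries of a genotype and set against their rescaled depth, its reads were 47.3-fold lower in del/del cells at day 8, with a 95% exact interval of 32.1 to 72.3 that covers counting error only. The limma difference, -5.72 ± 1.72 (adjusted p 0.0475), is a description, since the filter took in the gene for its fl/fl levels at this day, and it depends on the 0.9 reads at which the deposited table enters a 0. With line as a replicate block its adjusted p was 0.0661, so the call was lost. It was lost as well with TMM factors (0.0519), a pseudocount of 0.5 reads (0.0677), array weights (0.160), and without any 1 of the day 1 libraries (0.0712 to 0.0726), of the fl/fl libraries of day 5 (0.0506 and 0.0518), or the line 1 del/del library of day 8 (-3.22, 0.255). In fl/fl cells its reads at day 8 were at least 356-fold higher than at day 1, with 3 reads over the group as the floor. For the line 3 library of day 8 alone, with 15 reads, the bound against this same floor over both fl/fl libraries of day 1 is 49.4-fold. Line 3's own floor at day 1 was higher, at 0.0829 relative RPM, against 2.17 RPM at day 8. The counting error of the day 8 reads is not part of these bounds.

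**Figure D2:**
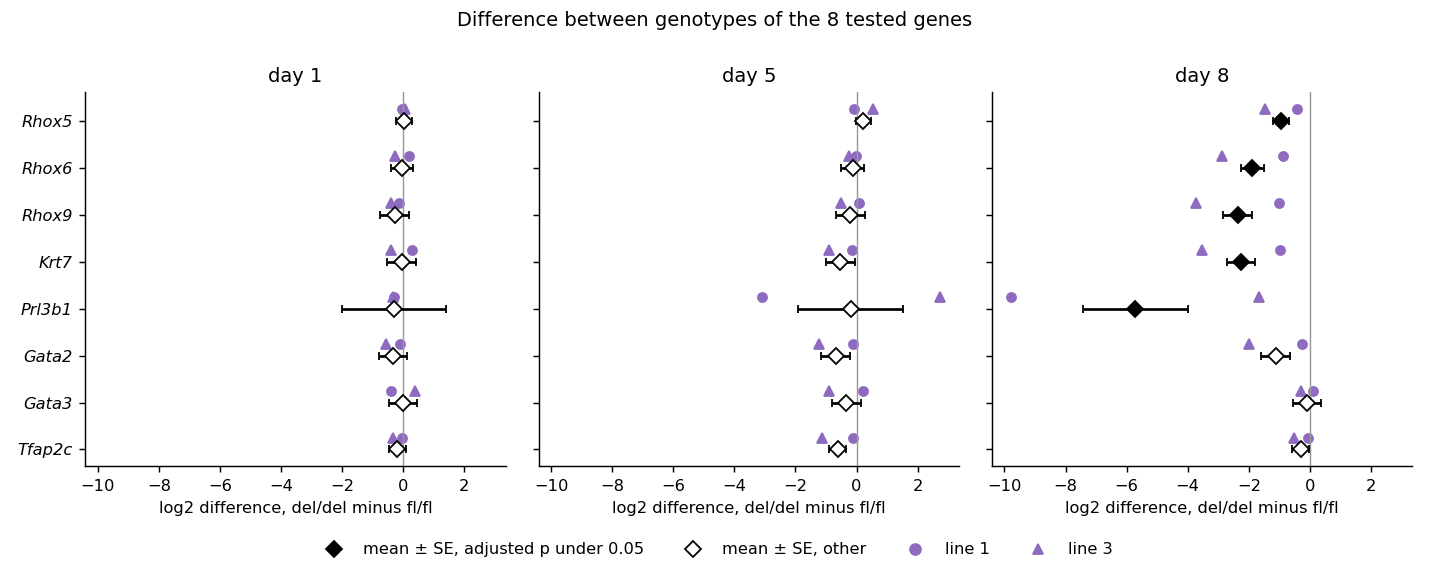
Difference in relative level (del/del minus fl/fl, log2) of the 8 tested genes at days 1, 5 and 8; diamonds are the fitted mean ± SE, filled where the adjusted p is under 0.05, and purple symbols are the differences within line 1 and line 3. No diamond is filled at day 1 or day 5, 5 are at day 8, and at day 8 the line 3 symbols of the Rhox genes, Krt7 and Gata2 lie below those of line 1. The filled diamond of Prl3b1 is a description, since its filter required high fl/fl levels at day 8.

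At the earlier days no genotype difference of the 8 was called, which with 2 libraries a group does not show closeness. At day 1 limma called 0 of the 8 (0.00711% of tested genes were called) and 0 had an unadjusted p under 0.05. The differences of the 7 genes other than Prl3b1, which had no reads, ran from -0.33 ± 0.47 for Gata2 to 0.02 ± 0.26 for Rhox5. In 2 of these 7, Rhox9 and Gata2, both del/del libraries lay below both fl/fl libraries, which 19.8% of tested genes did. At day 5 limma again called 0 (0.00711% of tested genes), and voom called 0 at both days. Tfap2c alone of the 8 had an unadjusted p under 0.05 (-0.61 ± 0.28, adjusted p by limma 0.597), beside 1088 of all tested genes. The fitted difference was positive for Rhox5 alone, and was -0.68 ± 0.47 for Gata2 and -0.54 ± 0.47 for Krt7. Within line 3 Gata2 differed by -1.24, Tfap2c by -1.11, Krt7 by -0.91, Gata3 by -0.89 and Rhox5 by 0.54. Within line 1 the same genes differed by -0.13, -0.11, -0.16, 0.23 and -0.09. Tfap2c had 390 and 156 reads in the del/del libraries, against 379 and 673 in the fl/fl libraries at day 5, at relative levels of 4.00 and 2.97 against 4.11 and 4.09. Without the line 1 del/del library of day 5 it was called lower (-1.14). In 1 of the same 7 both del/del libraries lay below both fl/fl libraries (19.8% of tested genes).

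Whether the genotype difference itself changed between days was tested as an interaction, and limma and voom called 0 of the 8. The share of all tested genes called was 0% between day 5 and day 1, 0.0213% between day 8 and day 1, and 0.00711% between day 8 and day 5. At an unadjusted p under 0.05 there were 0, 5 and 5 of the 8, beside 358, 2419 and 1925 of all 14063 tested genes. Both times the 5 were Krt7, Rhox5, Rhox6, Rhox9 and Prl3b1. The value of Prl3b1 is a description, since its filter required its high fl/fl level at day 8. Between day 8 and day 1 the interaction was -2.21 ± 0.67 for Krt7 (adjusted p 0.162), -2.09 ± 0.67 for Rhox9 (0.179), -1.84 ± 0.52 for Rhox6 (0.151) and -0.97 ± 0.37 for Rhox5 (0.226). Without the line 1 fl/fl library of day 8, Krt7, Rhox5, Rhox6 and Rhox9 were called in both interactions with day 8. The effect averaged over the days was called for 0 of the 8 by limma and by voom (0.107% of tested genes by limma). At an unadjusted p under 0.05 there were 5, beside 3447 of all tested genes, and Prl3b1 was not among the 5. The averaged effect was -0.94 ± 0.27 for Krt7 (adjusted p by limma 0.0908), -0.95 ± 0.27 for Rhox9 (0.0916) and -0.68 ± 0.21 for Rhox6 (0.103). Without the line 1 del/del library of day 5 it was called for 5 (Tfap2c, Gata2, Krt7, Rhox6 and Rhox9), and without the line 1 fl/fl library of day 8 for 3.

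The day 8 differences were not alike in the 2 lines. Within line 1 they were -0.97 for Krt7, -0.89 for Rhox6, -0.997 for Rhox9, -0.42 for Rhox5, -0.24 for Gata2, -0.06 for Tfap2c and 0.10 for Gata3. Within line 3 they were -3.54, -2.87, -3.73, -1.48, -1.99, -0.53 and -0.30 for the same genes. For these 7 the direction was thus shared for all but Gata3, at a larger size in line 3. Prl3b1 went the other way in size, with -9.78 in line 1, where del/del had 0 reads, and -1.66 in line 3. Line 3 is the line whose fl/fl library is the shallowest of the 12. Without that library the differences were -1.65 for Krt7 (adjusted p 0.107), -1.24 for Rhox6 (0.0722), -1.62 for Rhox9 (0.0894) and -0.60 for Rhox5 (0.209), Prl3b1 no longer passed the filter, and limma called none of the 7 tested. Without the line 3 del/del library of day 8 they were -1.56 (0.155), -1.53 (0.142), -1.74 (0.146) and -0.77, with -8.22 for Prl3b1 (0.0772), and again none was called. Among all tested genes 1118 were called higher and 991 lower at day 8. Leaving out the fl/fl library of line 3 gave 185 and 114, and leaving out the del/del library of line 3 gave 12 and 40. In both fits the group left with 1 library is taken to vary like the others. On the deposited scale Krt7 (-1.37, adjusted p 0.0446) and Rhox9 (-1.48) were called and Rhox6 (-0.9995, 0.0804) and Rhox5 (-0.07, 0.874) were not. Prl3b1 (-4.84, 0.0294) was under the threshold there, which is a description because of its filter.

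**Figure D3:**
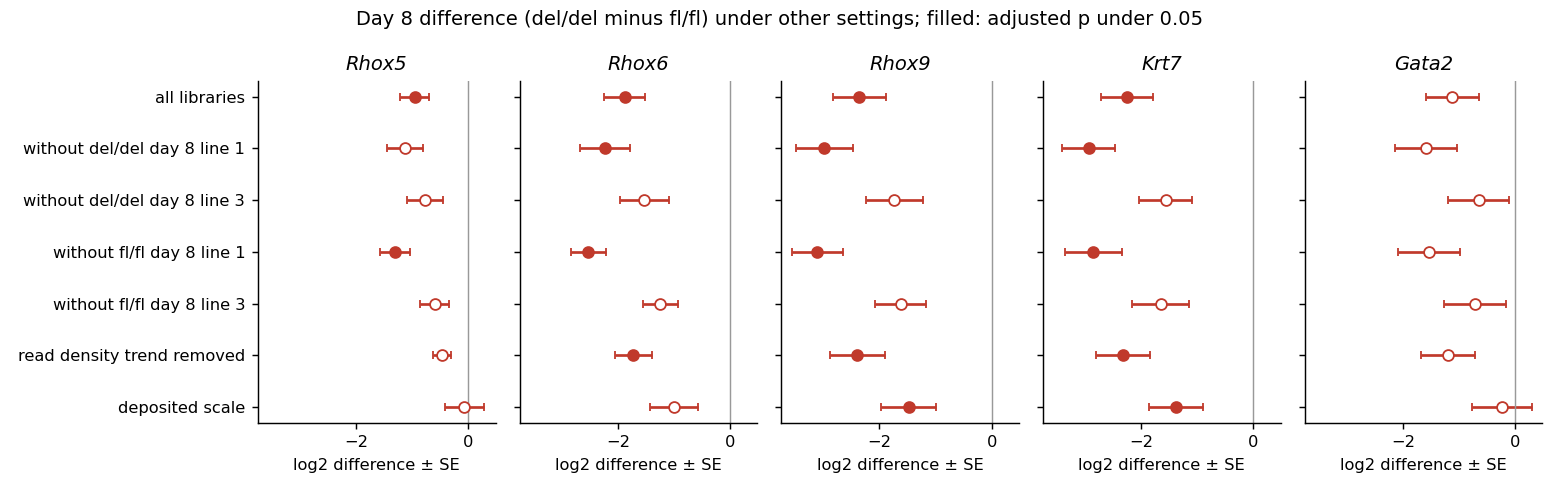
Day 8 difference (del/del minus fl/fl, log2, ± SE) of Rhox5, Rhox6, Rhox9, Krt7 and Gata2 under 7 ways of scaling the table or leaving out a library. All differences lie below 0. Those of Rhox6, Rhox9 and Krt7 are -0.9995 or lower, while that of Rhox5 is -0.07 on the deposited scale.

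Read density moved with the day 8 difference, and Rhox5 lies at its far end. With 754 exon bases Rhox5 held 0.471 to 1.63 reads per exon base, more than 99.7% of tested genes with a known exon length. Of the 31 genes read more densely, 28 had a negative day 8 difference, with a median of -0.60, and 5 (16.1%) were called lower. Eef1a1, a translation factor that most cells express at a high level, held between 1680 and 2090 reads in every library whatever its depth. Its day 8 difference was -1.46 (adjusted p by limma 0.0591). Eef2, another elongation factor, differed by -1.15 and the chaperone Hsp90ab1 by -1.21. For Rhox6, at the 94.8th percentile of density, 651 genes were denser, with a median of -0.30 and 14.3% called lower. Rhox9 and Krt7, at 0.144 and 0.0826 reads per exon base, lay in bins of density whose median differences were -0.01 and 0.04. Each library's trend with density was then removed, a setting chosen after seeing the data. The calls of Rhox6 (-1.72), Rhox9 (-2.39) and Krt7 (-2.32) held, and that of Rhox5 did not (-0.48, adjusted p 0.0619). The value of Prl3b1 (-5.79) is a description here too, since its filter required high fl/fl levels at day 8. Removal of duplicate reads was not given in the sources used here, and the part of read density in the differences was not tested.

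**Figure D4:**
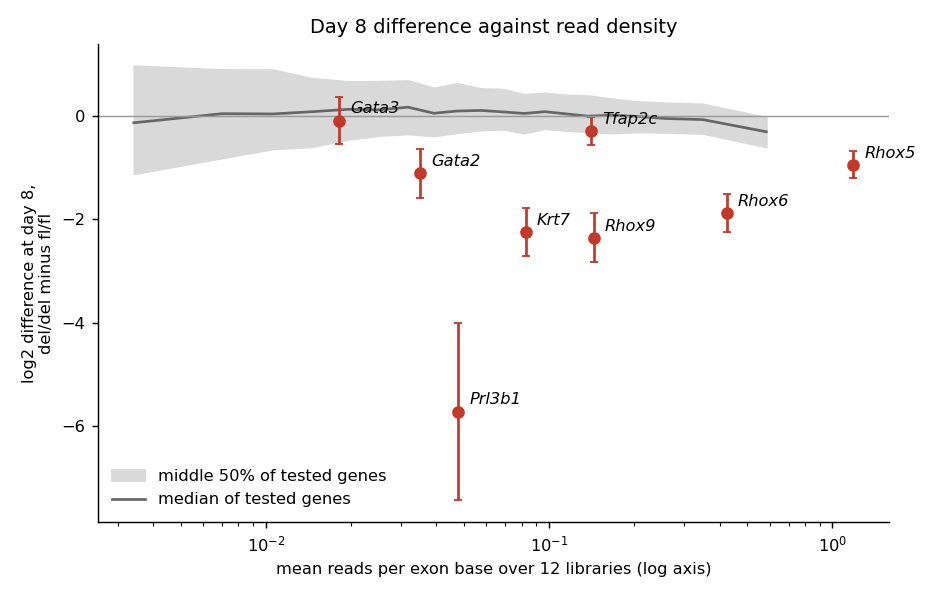
Day 8 difference (del/del minus fl/fl, log2) of the 8 tested genes against mean reads per exon base (log axis); the grey band holds the middle 50% of all tested genes in 20 bins of density. Rhox5 lies in the densest bin, where the band is below 0, and Rhox9 and Krt7 lie at densities where the band spans 0.

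Across the 12 libraries, which differ in day, genotype, line and depth, several of the genes ran closely together in relative level. Pearson's r was 0.994 for Rhox6 and Rhox9, 0.981 for Krt7 and Rhox9, 0.972 for Krt7 and Rhox6 and 0.941 for Gata2 and Rhox9. It was 0.700 for Rhox5 and Rhox6 and -0.09 for Tfap2c and Rhox9. Over all tested genes, those most like Rhox6 after Rhox9 were Cldn4 (0.991), which encodes a tight-junction claudin, and Tmbim6 (0.987). Krt7 was nearest to Ppp2r2c (0.987), Srxn1 (0.985) and Serpinb9b (0.982). Gata2 was nearest to Capn1 (0.986) and Gata3 to Olfml2b (0.964). Rhox5 was nearest to Trap1a and Vcp (0.951 each) and Tfap2c to Pramef8 (0.952). Prl3b1 was nearest to Prl2c5 (0.911), another prolactin-family gene. That r rests largely on values entered for 0 reads and on the fl/fl libraries of day 8. Of the 611 Prl3b1 reads, 559 lay in the line 1 fl/fl library of day 8. These r values are descriptions and were not tested.

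Epithelial genes around Krt7 were lower in del/del cells at day 8. Of 16 listed keratin and surface epithelium genes, 12 were tested, and limma called 11 lower and 0 higher, with a median of -1.65. Of all tested genes 7.05% were called lower and 7.95% higher at this day, which holds for each list below. The keratin pair of simple epithelia, Krt8 and Krt18, differed by -1.78 ± 0.41 (adjusted p 0.0218) and -1.85 ± 0.40 (0.0190), and Krt19 by -0.99 ± 0.27 (0.0340). The adhesion genes Epcam and Cdh1 differed by -1.43 ± 0.13 (0.00194) and -1.68 ± 0.18 (0.00286), the claudin genes Cldn4, Cldn6 and Cldn7 by -1.81, -1.31 and -1.73, and the epithelial regulators Grhl2, Grhl3 and Esrp1 by -1.78, -1.63 and -1.51. None of the list was called at day 1 or day 5. Its summed level was 184.3 to 199.5 RPM in del/del against 420.1 to 879.96 RPM in fl/fl libraries at day 8. Without the line 3 fl/fl library of day 8, and likewise without the del/del one, 4 were called lower, and on the deposited scale 1 was.

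Other trophoblast regulators moved in both directions at day 8. Of 17 tested, limma called 3 higher and 4 lower in del/del cells (7.95% and 7.05% of all tested genes), with a median of -0.75. Higher were Bmp4, a growth factor that acts on trophoblast and mesoderm (1.60 ± 0.31, adjusted p 0.0142), Id2, an inhibitor of basic helix-loop-helix factors that marks trophoblast stem cells (1.27 ± 0.24, 0.0146), and Dusp6, a phosphatase induced by Fgf signalling (0.84 ± 0.17, 0.0165). Lower were Hand1, which drives giant cell formation (-2.10 ± 0.43, 0.0161), Tead4, the factor that sets up trophoblast in the blastocyst (-1.24 ± 0.31, 0.0279), Ets2 (-0.83 ± 0.23, 0.0382) and Nr0b1, an orphan receptor that ES cells express at a high level (-1.30 ± 0.34, 0.0309). Cdx2 (-0.52, adjusted p 0.206) and Eomes (-0.93, 0.207), the defining stem cell factors, were not called, and Cdx2 also belongs to neuromesodermal progenitors. Bmp4 and Hand1 are mesodermal genes as well. No call of this list was left without the day 8 library of line 3 of either genotype.

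Of 34 listed products of differentiated trophoblast found in the table, 17 were tested, and limma called 1 higher and 4 lower at day 8, with a median of -0.996. Mmp9, a matrix protease of invading trophoblast and of other cells, was higher (2.35 ± 0.45, adjusted p 0.0144). Lower were Prl2a1, a prolactin-family gene (-3.42 ± 1.03, 0.0485), Cyp11a1, which starts steroid synthesis (-2.58 ± 0.78, 0.0491), the imprinted placental gene Peg10 (-1.33 ± 0.27, 0.0157) and the glucose transporter gene Slc2a1 (-0.996 ± 0.26, 0.0324). Cyp11a1 passed the filter only through fl/fl libraries, those of line 3 at day 5 and day 8. Its difference, counted among the 4 lower, is therefore a description. It had 18 and 6 reads in the del/del libraries at day 8, against 25 and 19 in the fl/fl libraries. Tpbpa, the marker of spongiotrophoblast, differed by 0.27 ± 1.31 and had 55 and 33 reads in the del/del libraries, against 172 and 0 in the fl/fl libraries. Prl3d2, Psg21 and Synb had no reads in any library. Prolactin-family and Psg genes include near-identical copies, so their counts are uncertain. These calls too were all lost without the day 8 library of line 3 of either genotype.

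**Figure D5:**
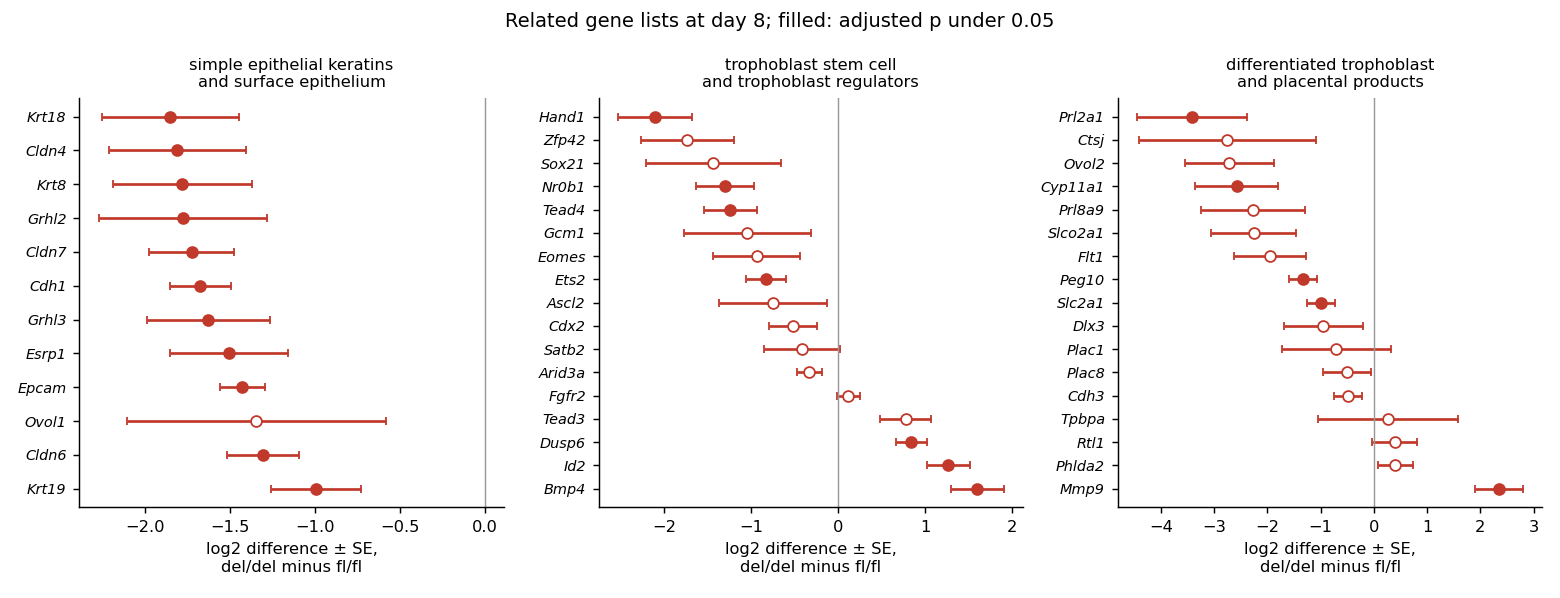
Day 8 difference (del/del minus fl/fl, log2, ± SE) of each tested gene of 3 related lists: keratins and surface epithelium, trophoblast regulators, and differentiated trophoblast products. All 12 epithelial genes lie below 0, while the other two lists hold genes on both sides.

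Markers of other cells moved at the same day. Summed levels at day 8 were 404 to 558 RPM in del/del against 858 to 1230 RPM in fl/fl libraries for 16 primitive and visceral endoderm genes (0 of 13 tested called higher, 3 lower: Col4a1, Lamb1 and Sparc). They were 484 to 604 RPM in del/del against 62.8 to 230 RPM in fl/fl libraries for 10 fibroblast genes (3 called higher). Of 13 tested pluripotency genes 1 was called higher and 7 lower, and of 9 surface ectoderm and neural crest genes 4 higher and 1 lower. Among these 4, Snai2 passed the filter only through its del/del day 8 libraries. Of 7 tested GATA, AP-2 and Ets relatives 2 were called lower, Elf3 (-1.69) and Elf1 (-1.21). Amnion genes had 1 higher and 2 lower of 12, endothelial and blood genes 0 and 1 of 7, germ cell genes 2 and 0 of 8, and neuromesodermal progenitor genes 2 and 1 of 11. Over these 9 lists, which share genes, 13 of 90 were called higher and 17 lower, against 7.95% and 7.05% of all tested genes, and nothing is read from single lists with 1 or 2 calls. Without the line 3 del/del library of day 8, 0 and 2 calls were left, and without the fl/fl one 3 and 3. The part of any of these cells in the day 8 differences of the 10 genes was not tested.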

How the data were processed

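RNA from 12 libraries of ES cells and their differentiating progeny was sequenced. The submitters' processing notes name bcl2fastq, TopHat2 2.0.12, edgeR and the build mm10, without saying what each did. Values in the table the authors deposited are log2 RPM, per the labels, in 12 columns. On the linear scale, every value of a library (100%, to within 0.02 reads) is a whole number of equal steps, and a 0 stands as 0.9 reads. Read numbers were recovered from those steps.

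The 10 genes and the 13 gene lists were chosen with earlier results of these data known, as were the relative scale and the tests. A gene of the keratin and surface epithelium list is not reported here and was left out of that list's counts and sums. The filter kept 14063 genes, those whose log2 RPM exceeded 0 in 2 or more libraries. For the relative scale, log ratios over these genes were taken in each library and their median was subtracted. Limma 3.58.1 (R 4.3.3) fitted 6 group means with a trend of variance on level. Its moderated p-values were adjusted over the 14063 genes (Benjamini-Hochberg, threshold 0.05). The fit was tested on simulated data. The 13 comparisons were del/del against fl/fl at each day and over the days, 3 interactions, and days against each other within each genotype.

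Libraries of the same number come from the same line, as the column names and the labels' protocols show. Deviations of same-day libraries of the same line from their group means correlated at 0.13 at day 1, -0.15 at day 5 and -0.11 at day 8. With 2 libraries a group, p-values rest on the spread between libraries of the same group, pooled over all 6 groups and moderated over genes. Leaving out a library of any group therefore changes the p-values of every comparison. The libraries of a group differ in line and also in depth. The fit reported did not pair libraries by line, and the replicate block did. Depth was 1.51 to 8.67 M reads in genes, and intervals and limits of 0 counts cover counting error only. Deposited coordinates are mm10. Exon lengths and overlaps came from GENCODE M21, promoters from RefSeq. Named genes were all 10 genes, Smchd1, up to 4 genes of each list with the smallest p at day 8 and any list gene called between genotypes, and the 3 genes nearest to each tested gene by correlation, leaving out predicted genes, pseudogenes and small RNA genes. Singling out other genes, such as those read most densely or with no reads, followed a look at their values. Alternatives were other scalings, filters, pseudocounts, voom, array weights, a replicate block, the removal of each library and, added later, the removal of the trend with read density. Pandas 2.3.3, NumPy 2.4.6 and SciPy 1.17.1 were used for the rest, and Matplotlib 3.10.9 for plots.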

Additional observations from a re-analysis of the deposited data

How the results depend on the processing

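None of the 21 called differences changed direction under the other settings run, 22 in number, 12 of which leave out a library (19 for Prl3b1, which failed the filter in the rest). Differences of Prl3b1 are among the 21 and in the counts of the next sentence. Its filter required its high fl/fl level at day 8, so its steady direction is a description only. Of the 21, 9 lost their call under at least 1 other scaling, filter or model, and 9 without at least 1 library (10 in all). The number called at day 8 (5) was 3 on the deposited scale, 2 with array weights and 4 with the replicate block, and 0 to 6 without a library. At day 8 it was also 4 with TMM factors, voom, no filter, a pseudocount of 0.5 reads and the density trend removed. The stricter filter, which Prl3b1 did not pass, gave 4 as well, and a pseudocount of 2 reads gave 5. Prl3b1 is counted in the fit reported, on the deposited scale and with voom. It is counted also with no filter, with the density trend removed and with a pseudocount of 2 reads. Between day 8 and day 5 it was 1 for del/del cells with a pseudocount of 2 reads and with voom (0 in the fit reported), and 1 for fl/fl cells with a pseudocount of 2 reads. Between day 8 and day 1 it was 0 for del/del cells on the deposited scale and 4 with array weights (2 in the fit reported). Without a library the numbers were 0 to 0 at day 1, 0 to 1 at day 5, 0 to 5 over the days, 0 to 0 in the interaction between day 5 and day 1, and 0 to 4 in each interaction that involves day 8. For del/del cells they were 3 to 4 (day 5 against day 1), 0 to 4 (day 8 against day 5) and 0 to 3 (day 8 against day 1), and for fl/fl cells 4 to 5, 0 to 2 and 5 to 6. The replicate block ended the day 8 call of Prl3b1 (adjusted p 0.0661) and changed no other call. The cause of these shifts was not tested.

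Genotype differences at single days that were not called changed sign as follows. At day 1 Rhox5 was -0.00984 without a filter, Rhox6 0.12 on the deposited scale and 0.021 with the density trend removed, and Krt7 0.12 on the deposited scale. Gata3 was -0.027 at day 1 without a filter, -0.028 with the density trend removed, and -0.00256 and -0.016 with pseudocounts of 0.5 and 2 reads. At day 5 Rhox5 was -0.15 on the deposited scale and -0.017 with the density trend removed, and Prl3b1 0.25 with voom. At day 8 Gata3 was 0.78 on the deposited scale, 0.013 with TMM factors, 0.19 without a filter and 0.022 with voom, and Tfap2c 0.58 on the deposited scale. Leaving out each library in turn gave, at day 1, -0.18 to 0.22 for Rhox5, -0.26 to 0.19 for Rhox6, -0.22 to 0.14 for Krt7, -0.67 to 0.67 for Gata3 and -0.39 to 0.0013 for Tfap2c. At day 5 it gave -0.063 to 0.50 for Rhox5, -0.39 to 0.12 for Rhox6, -0.62 to 0.18 for Rhox9, -2.10 to 1.71 for Prl3b1, -1.41 to 0.034 for Gata2 and -0.78 to 0.10 for Gata3, and at day 8 -0.22 to 0.033 for Gata3. Of the other 64 uncalled differences of the 8 genes (over the days, interactions and days within a genotype), 16 changed sign on the deposited scale, where none of them was called. Among them, in fl/fl cells Krt7 and Gata2 were -0.37 and -0.32 between day 8 and day 5 (0.18 and 0.23 in the fit reported) and Rhox5 -0.39 between day 8 and day 1 (0.54). In del/del cells Rhox5 and Gata3 were -0.55 and -0.07 between day 5 and day 1 (0.36 and 0.84), and the interaction of Rhox5 between day 8 and day 5 was 0.08 (-1.18).

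DESeq2 and edgeR's tests were not run, since the deposited values are log2 RPM. Depth limits the low genes: Elf5 and Tfap2a were tested only without a filter, where at day 8 they differed by -2.37 (adjusted p 0.0587) and -0.95 (0.347).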

Other observations

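The placental products Ctsq and Prl2c2, with too few libraries above the filter to be tested, had most of their reads in the fl/fl day 8 library of line 1, which also held most Prl3b1 reads. The genes here were singled out after their values were seen. Ctsq, a cathepsin gene of the labyrinth, had 0 and 2 reads in the del/del libraries, against 141 and 0 in the fl/fl libraries at day 8 (line 1, then line 3), and 167 in all. Prl2c2, a proliferin gene with close copies, had 0 and 2 reads in the del/del libraries, against 41 and 2 in the fl/fl libraries, and Psg19, a pregnancy-specific glycoprotein gene that was not tested either, 11 and 4 in the del/del libraries, against 35 and 6 in the fl/fl libraries, of 83 reads in all. Ctsj, another placental cathepsin gene, was tested and had 61 and 100 reads in the del/del libraries, against 543 and 63 in the fl/fl libraries (log2 difference -2.75 ± 1.66, adjusted p by limma 0.258). Within the Rhox cluster, Rhox12 had 7 and 0 reads in the del/del libraries, against 14 and 14 in the fl/fl libraries at day 8, and was not tested.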
